A study of Caenorhabditis elegans with 4 samples.

Results

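The genes for histones and linker histones were read out in whole early adult Caenorhabditis elegans. Members were the rows of the deposited table whose sequence name maps in the WBcel235 annotation to a symbol of the his or hil series, to htz-1 or to htas-1. There were 65 of them among 13758 rows, namely 56 core histone genes and 9 linker histone genes, and the annotation holds a further 17 genes that meet the rule but have no row and were not analysed here. The mutant group was strain GG14 with genotype fasn-1(g14), a mutant of the fatty acid synthase gene, and it was set against the wild-type strain N2 (Bristol). Each group had 2 biological replicates, numbered 3 and 4. All 4 cultures had starved in the first larval stage for 8 days at 20 °C and then fed for about 68 hours on HT115 bacteria that carried an empty vector, on plates holding 1 mM IPTG and carbenicillin at 25 µg/ml, until eggs appeared. Each culture was a pool started from 750 live animals. The lesion of the g14 allele is not given in the sources used here, and whole animals mix all tissues, the germline and any embryos they hold.

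Nucleosomes wrap DNA around a core of the histones H2A, H2B, H3 and H4, and a linker histone (H1) binds where the DNA enters and leaves. Canonical core histones are made from many near-identical gene copies, most of them without introns and used when DNA is copied, whereas variants such as H3.3 and H2A.Z come from genes with introns and are loaded outside of replication too. In animals the messages of replication-type histone genes usually end in a stem-loop and carry no poly(A) tail. The labels do not say whether poly(A) RNA was selected, so levels of canonical copies were not set against those of variants.

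The libraries held 14643426 and 15889424 reads in fasn-1(g14) and 15023519 and 13960509 reads in wild type. Levels are given as CPM, the authors' depth-normalized read count, in which 1 read was worth 0.0628 to 0.0676 CPM. The transcript of fasn-1 itself stood at 353 and 285 CPM in the mutant, against 369 and 410 CPM in wild type, and the mutant libraries were lower without passing (log2 change -0.29; limma, adjusted p = 0.1196). This level does not check the labels. The mutant libraries stood further apart from each other than the wild-type libraries (Pearson's r over genes 0.988 in the mutant and 0.995 in wild type).

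Over all 12977 rows tested, limma called 15.1% (4.41% higher and 10.7% lower in the mutant, Benjamini-Hochberg adjusted p below 0.05). Of the histone genes, 52 reached the level needed for the test, and 1 was called: the linker histone gene hil-7, which fell. Among core histone genes 0 of 43 tested passed in either direction, with a median change of log2(CPM + 1) of 0.09, beside a median of 0.00 over all rows. Both mutant libraries lay above both wild-type libraries in 17 of the 43 and below them in 9, when 31.2% of all rows tested lay above and 32.9% below. At an unadjusted p below 0.05 there were 5 core genes higher and 5 lower, when 12.3% and 20.6% of all rows met that mark. edgeR on the recovered reads called 0 core genes, when it called 3.38% of all rows higher and 7.04% lower. DESeq2 called 1 lower (his-35), against 3.91% and 8.15% of all rows. Counts called changed with single libraries left out, over all rows as well as for core genes. With each library left out in turn, the median log2 change ran from 0.11 to 0.21 for core genes and from -0.0066 to 0.0025 over all rows.

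**Figure D1:**
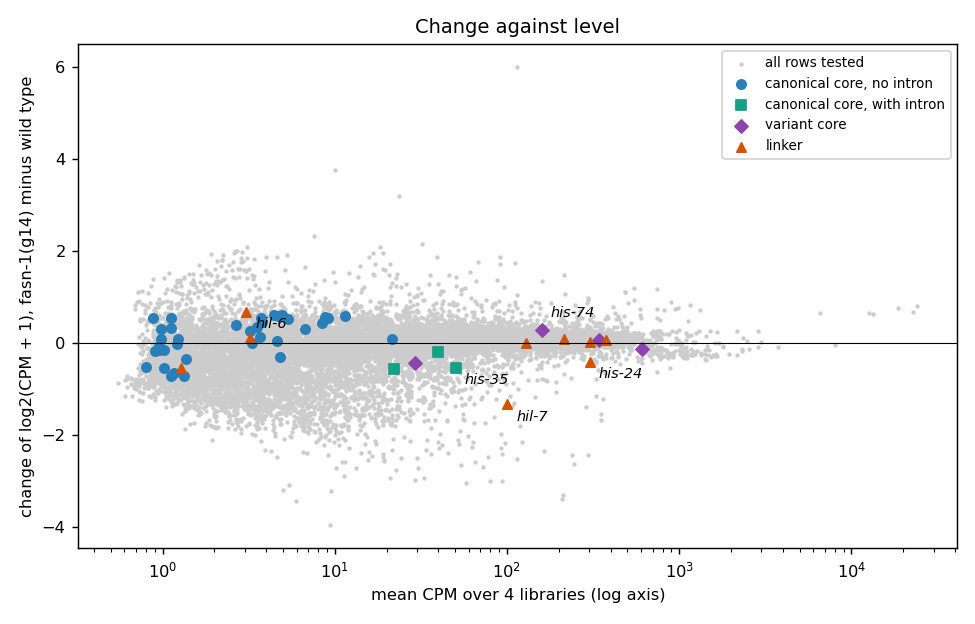
Change of log2(CPM + 1), fasn-1(g14) minus wild type, against mean CPM on a log axis; grey points are all rows tested, coloured points the tested histone genes by kind. The canonical copies without introns lie at the low end on either side of 0, most linker and variant genes lie at high levels near 0, and hil-7 lies lowest of the histone genes at -1.33.

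The linker histones bind the outside of the nucleosome and help to compact chromatin. The gene hil-7 (C01B10.5, WBGene00001858; chromosome IV, 6646312 to 6646972, plus strand) is classed here as a linker histone gene by its symbol. It is annotated with 4 transcripts of 39 to 66 codons. The longest coding lengths of the other linker genes run from 151 codons (hil-8) to 253 codons (hil-4). Whether the short product of hil-7 acts as a linker histone was not tested. The gene hil-7 had 87.4 and 34.3 CPM in the fasn-1(g14) libraries, against 128 and 151 CPM in the wild-type libraries. Both mutant libraries lay below both wild-type libraries, and mutant replicate 4 lay far below replicate 3. The log2 change was -1.33 (SE 0.36, 95% interval -2.16 to -0.49; limma, adjusted p = 0.0471). The call stood at the edge of the threshold. It was lost without wild type replicate 4, in edgeR (adjusted p = 0.0782) and in DESeq2 (adjusted p = 0.232). The call was also lost with a pseudocount of 0.5 CPM, a mean of at least 5 CPM, rescaled CPM and quantile normalization. A pseudocount of 5 CPM, no filter and the replicate block kept it. The log2 change was -1.99 without mutant replicate 3 and -0.67 without mutant replicate 4.

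Summed levels of transcripts that mark neurons, pharynx and body wall muscle also lay lower in the mutant, and the sum of intestine markers lay higher. Over all rows tested, 10.7% fell and 4.41% rose by limma. Of 14 neuron markers 12 fell, with summed levels of 564 and 452 CPM in fasn-1(g14) and 813 and 865 CPM in wild type. Of 10 pharynx markers 7 fell, with sums of 350.0 and 168 CPM in fasn-1(g14) and 1172 and 1266 CPM in wild type. Of 10 body wall muscle markers 6 fell and 0 rose by limma (summed levels 3588 and 3495 CPM in fasn-1(g14), 3928 and 3926 CPM in wild type). Members of this list also lay the other way without passing. The gene unc-54 had 1179 and 1190 CPM in fasn-1(g14) and 1100 and 1036 CPM in wild type, and pat-10 had 371 and 388 CPM in fasn-1(g14) and 333 and 333 CPM in wild type. Of 12 intestine markers 6 rose and 0 fell, with sums of 109096 and 108101 CPM in fasn-1(g14) and 64011 and 68909 CPM in wild type. Most of each sum came from the yolk protein genes vit-1, vit-2, vit-3, vit-5 and vit-6. Among the others, asp-1 had 1378 and 1302 CPM in fasn-1(g14) and 1569 and 1390 CPM in wild type. The gene ifb-2 overlapped, with 105 and 109 CPM in fasn-1(g14) and 108 and 108 CPM in wild type. None of these markers was at 0 in all libraries. In the neuron, pharynx and muscle lists mutant replicate 4 was the lowest of the 4 libraries, as it was for hil-7, and the part of these tissues in the level of hil-7 was not tested. In whole animals, fewer cells of a type and less RNA per cell cannot be told apart.

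The other abundant linker histone genes were hil-4, hil-5, hil-2, hil-3 and his-24, the last being a linker histone gene in spite of its name. The gene hil-4 had 358 and 407 CPM in fasn-1(g14) and 371 and 359 CPM in wild type, and hil-5 had 297 and 318 CPM in fasn-1(g14) and 303 and 299 CPM in wild type. The groups overlapped for both, and the 95% intervals of the log2 change ran from -0.13 to 0.26 for hil-4 and from -0.14 to 0.20 for hil-5. For his-24 the mutant values were 333 and 195 CPM and the wild-type values 323 and 355 CPM. Mutant replicate 3 lay among the wild-type libraries and replicate 4 well below them, and the difference did not pass (log2 change -0.41, SE 0.21; limma, adjusted p = 0.228).

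For hil-2 and hil-3 the mutant libraries lay on opposite sides of wild type. The gene hil-2 had 268 and 176 CPM in fasn-1(g14) replicates 3 and 4, against 199.8 and 211 CPM in wild type, and hil-3 had 159 and 103.02 CPM in fasn-1(g14), against 124 and 132 CPM in wild type. Their log2 changes were 0.08 (SE 0.17) and 0.00 (SE 0.18). With mutant replicate 3 left out both passed as lower, at -0.22 and -0.31, and with mutant replicate 4 left out both passed as higher, at 0.38 and 0.31 (limma; the lone mutant library is then assumed to vary like the wild-type pair).

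The remaining linker genes were scarce. The gene hil-1 had 4.46 and 2.46 CPM in fasn-1(g14) and 3.02 and 2.97 CPM in wild type, with overlapping groups. The gene hil-6 had 5.47 and 2.65 CPM in the mutant, against 1.76 and 2.36 CPM in wild type, so that both mutant libraries were higher, with a log2 change of 0.68 (SE 0.32; limma, adjusted p = 0.193). The gene hil-8 rested on 14 and 12 reads in the mutant and 27 and 25 reads in wild type, which is 0.946 and 0.777 CPM in fasn-1(g14) and 1.70 and 1.69 CPM in wild type (limma, adjusted p = 0.163). Per kilobase of exon, the order in the mutant was hil-4, hil-5, hil-2, his-24, hil-3 and hil-7, at 401, 355, 294, 286, 152 and 106 CPM per kilobase. In wild type it was hil-4, his-24, hil-5, hil-2, hil-7 and hil-3, at 382, 367, 347, 272, 244 and 149 CPM per kilobase. Neighbours in these orders that overlapped between libraries were hil-5 with hil-2, hil-2 with his-24, and hil-3 with hil-7 in the mutant, and hil-4 with his-24 in wild type. Summed over the 9 linker genes, the level was 1515 and 1239 CPM in the mutant and 1456 and 1513 CPM in wild type, and the groups overlapped, whereas both mutant libraries lay below wild type with each library rescaled to the same CPM total.

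**Figure D2:**
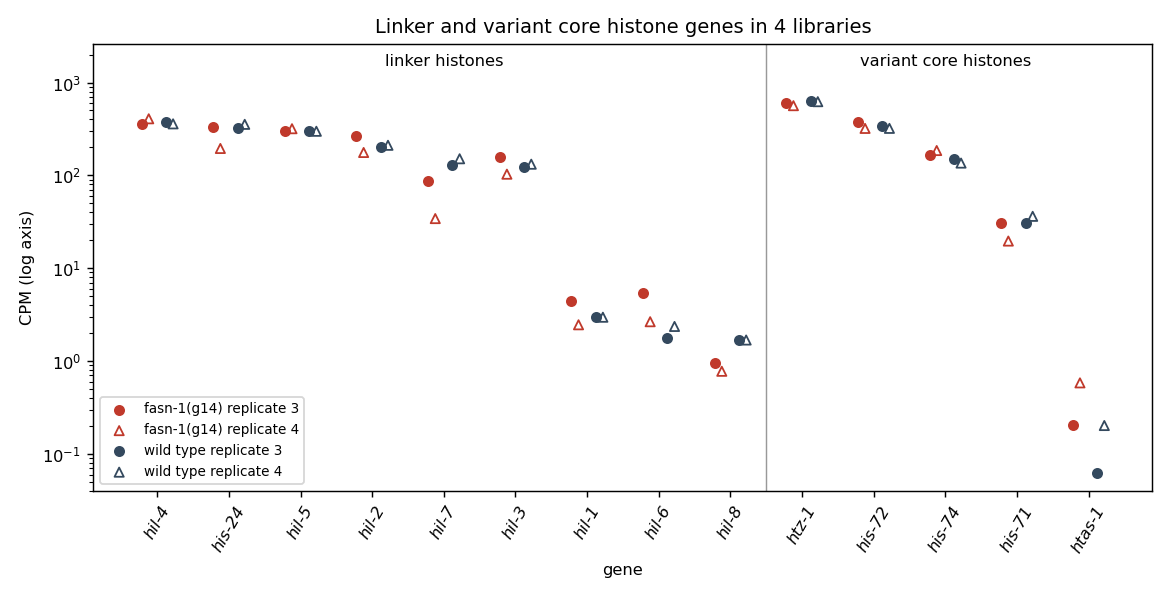
CPM on a log axis for each linker and variant core histone gene, with fasn-1(g14) libraries in red left of wild-type libraries in blue; circles are replicate 3 and triangles replicate 4. Mutant replicate 4 lies below all other libraries for hil-7, his-24, hil-2, hil-3 and his-71, and also for htz-1, hil-1, hil-8 and, barely, his-72. Both mutant libraries lie above wild type for his-74.

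Among the variant core histones, htz-1 (H2A.Z) was the most abundant member, with 597 and 563 CPM in fasn-1(g14) and 636 and 622 CPM in wild type. Both mutant libraries were lower, by a log2 change of -0.12 (SE 0.07; limma, adjusted p = 0.317). H3.3, the form of H3 loaded into chromatin outside of replication, was read from his-71, his-72 and his-74. The genes his-69 and his-70 of the same group have no row and are not in the H3.3 sum. The gene his-72 had 380.1 and 320.5 CPM in fasn-1(g14) and 342 and 321 CPM in wild type, with overlapping groups. The gene his-74 (W05B10.1; chromosome V, 12659704 to 12660330, minus strand) had 166 and 185 CPM in fasn-1(g14), against 151 and 135.7 CPM in wild type. Both mutant libraries were higher, and the log2 change of 0.29 (SE 0.09) missed the threshold after adjustment (95% interval 0.07 to 0.50; limma, adjusted p = 0.0746). The gene his-71 had 30.4 and 19.6 CPM in fasn-1(g14) and 30.8 and 36.2 CPM in wild type, and the lower level again came mainly from mutant replicate 4 (log2 change -0.44, SE 0.21; limma, adjusted p = 0.186). Summed H3.3 was 576 and 525 CPM in the mutant and 524 and 493 CPM in wild type, groups that no longer part when each library is rescaled to the same CPM total.

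The sperm H2A variant htas-1 was barely detected, with 3 and 9 reads in fasn-1(g14) and 1 and 3 reads in wild type. It stayed under the level needed for the test, and at this depth no difference could be shown. The summed level of 19 sperm markers was 54.1 and 80.4 CPM in fasn-1(g14), against 8.73 and 17.4 CPM in wild type. Of the 18 tested 14 rose, when 4.41% of all rows did, but all 18 reached the level for the test only through the mutant libraries, so this count is no independent support. The small basic proteins that pack sperm chromatin showed the same direction. Their genes spch-1, spch-2 and spch-3 had means of 2.78 ± 0.271, 1.86 ± 0.430 and 4.28 ± 0.924 CPM in the mutant and 0.533 ± 0.487, 0.261 ± 0.0131 and 0.982 ± 0.233 CPM in wild type (SD, n = 2 each). All passed (limma, adjusted p = 0.0280, 0.0251 and 0.0184), and none passed without either wild-type library. They too reached the level for the test only through the mutant libraries, so their calls are given as a description.

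The canonical core histones were described as 48 genes with a transcript that lacks introns and 3 genes, his-35 (H2A), his-41 (H2B) and his-37 (H4), whose transcripts all have an intron. This division, and that by neighbourhood given later, were drawn up with the values in view and carry no test. Of the 48, 36 reached the level for the test, and a further 12 did not. Their mean levels ran from 0.404 to 22.2 CPM in fasn-1(g14), with a median of 1.18 CPM, and from 0.490 to 20.9 CPM in wild type, with a median of 1.32 CPM. Copies are close to identical, and 28 of the 51 canonical rows share their annotation symbol with another row, so reads may have been split between copies or dropped, and values of single copies are uncertain.

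The 3 genes with introns lie side by side on chromosome V (9544659 to 9547607). The gene his-35 had 47.6 and 35.03 CPM in fasn-1(g14), against 59.3 and 59.4 CPM in wild type. Both mutant libraries were lower, and the log2 change of -0.53 (SE 0.15, 95% interval -0.87 to -0.19) fell just short of the threshold (limma, adjusted p = 0.0502; DESeq2, adjusted p = 0.0494). The gene his-41 had 19.9 and 15.3 CPM in the mutant and 22.6 and 30.2 CPM in wild type, also without overlap (log2 change -0.56, SE 0.19; limma, adjusted p = 0.0914). It shares 173 bases of exon with C50F4.6 on the same strand, a gene with 32.98 and 22.6 CPM in the mutant and 26.1 and 30.2 CPM in wild type. The gene his-37 had 37.4 and 36.3 CPM in the mutant and 39.3 and 45.1 CPM in wild type (log2 change -0.19, SE 0.11; limma, adjusted p = 0.298). Together they summed to 105 and 86.7 CPM in fasn-1(g14), against 121 and 135 CPM in wild type, a ratio of 0.748.

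The copies without introns summed the other way. Their total was 167 and 154 CPM in fasn-1(g14), against 127.04 and 137 CPM in wild type, a ratio of 1.21, or 1.14 with each library rescaled to the same CPM total. In the rescaled values the mutant libraries also stayed above wild type. Over all 51 canonical genes the sums overlapped, with 272 and 240.2 CPM in the mutant and 248 and 272 CPM in wild type. Per kilobase of exon, the genes with introns stood at 66.4 CPM in the mutant and 88.8 CPM in wild type, and the copies without introns at 8.90 CPM in the mutant and 7.33 CPM in wild type. Whether poly(A) RNA was selected is not known, and reads of near-identical copies may have been dropped. The gap in level between these kinds of gene therefore cannot be read as a difference in abundance.

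By class, the summed level of copies without introns differed mainly for H4 and H2B, but single copies went both ways. H4 copies summed to 45.01 and 41.3 CPM in fasn-1(g14), against 28.9 and 31.03 CPM in wild type, a ratio of 1.44 over 14 genes. H2B copies summed to 41.97 and 37.2 CPM in fasn-1(g14), against 27.2 and 31.1 CPM in wild type, a ratio of 1.36 over 7 genes. For both sums the mutant libraries stayed above wild type after rescaling. Both mutant libraries lay above both wild-type libraries in 8 of the 14 H4 copies and below them in 2. Of the 7 H2B copies 3 lay above and 3 below, when 30.9% of all rows in the table lay above and 32.7% below. H3 copies summed to 32.7 and 30.5 CPM in the mutant and 28.65 and 29.01 CPM in wild type, and these groups overlapped once rescaled. H2A sums overlapped, with 47.4 and 44.5 CPM in the mutant and 42.3 and 45.7 CPM in wild type. The gene his-68 alone had means of 22.2 CPM in the mutant and 20.9 CPM in wild type. Of the 13 H2A copies 2 (his-47 and his-57) lay above and 1 below.

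**Figure D3:**
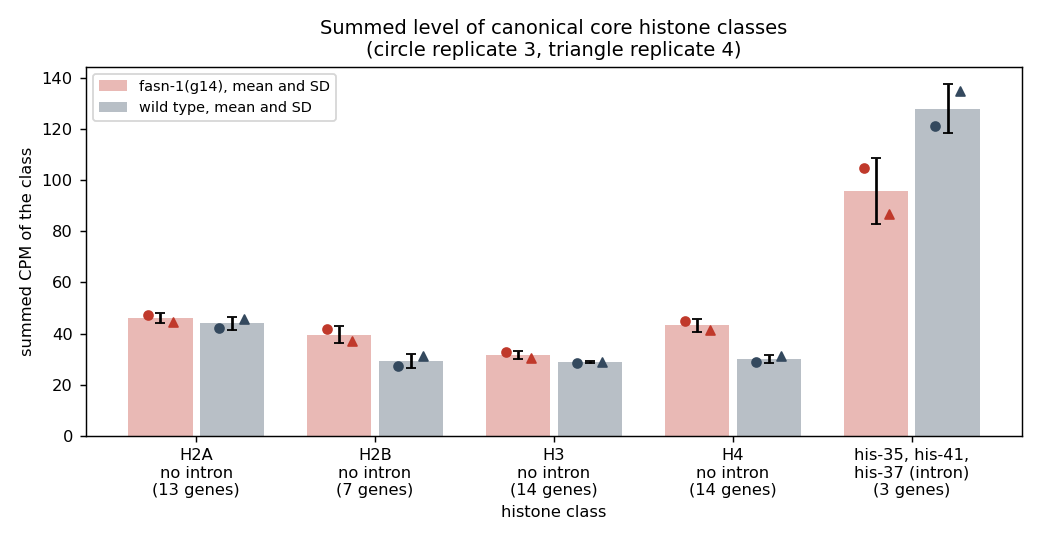
Summed CPM of each canonical core histone class, fasn-1(g14) in red left of wild type in blue; bars are means, error bars SD over 2 libraries, circles replicate 3 and triangles replicate 4. The sums of H4 and H2B copies without introns are higher in both mutant libraries, and the sum of the 3 genes with introns is lower.

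The most abundant H4 and H2B copies lay on the same side as their sums, without passing. The H4 gene his-60 had 14.4 and 13.3 CPM in fasn-1(g14), against 7.16 and 10.7 CPM in wild type (log2 change 0.60, SE 0.23; limma, adjusted p = 0.111). The H4 gene his-46 had 6.08 and 6.28 CPM in the mutant and 3.58 and 3.78 CPM in wild type (log2 change 0.62, SE 0.22; limma, adjusted p = 0.101). The H2B genes his-48 and his-58 had 10.7 and 11.3 CPM, and 11.3 and 10.04 CPM, in the mutant. In wild type his-48 had 7.41 and 7.08 CPM and his-58 had 7.10 and 6.68 CPM, below the mutant values in every library (limma, adjusted p = 0.0990 and 0.0967). The most abundant H2A and H3 copies had smaller log2 changes. The H2A genes his-68 and his-61 had log2 changes of 0.08 (SE 0.15) and -0.29 (SE 0.25), and the H3 genes his-59, his-55 and his-32 had 0.31 (SE 0.24), 0.36 (SE 0.25) and 0.05 (SE 0.27). Under quantile normalization, 7 core genes passed as higher (his-38, his-46, his-48, his-56, his-58, his-60 and his-62, all of them H2B or H4 copies without introns) and 1 as lower (his-35), when 6.18% of all rows tested passed as higher and 8.09% as lower.

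The canonical genes lie in neighbourhoods, here runs of genes with gaps under 100 kb, and these differed in direction. The run of 12 genes on chromosome IV (11324056 to 11407427) summed to 75.1 and 66.7 CPM in fasn-1(g14), against 47.4 and 50.5 CPM in wild type, a ratio of 1.45. In 9 of the 12 both mutant libraries lay above both wild-type libraries and in 0 below, when 30.9% of all rows in the table lay above and 32.7% below. A second run of 4 genes on chromosome IV (7485834 to 7488659) summed to 30.8 and 33.4 CPM in the mutant and 21.2 and 27.5 CPM in wild type, with 3 of 4 genes above.

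The run on chromosome II (13818371 to 13827709) went the other way. Its 11 genes summed to 10.6 and 3.95 CPM in fasn-1(g14), against 11.2 and 16.4 CPM in wild type, a ratio of 0.527, and 8 of 11 lay below wild type in both mutant libraries. This rested on few reads, 157 and 61 in the mutant and 179 and 243 in wild type, and mutant replicate 3 differed little from wild type replicate 3. None of its genes exceeded a mean of 1.17 CPM in the mutant or 1.86 CPM in wild type, and 4 of the 11 did not reach the level for the test. The run of 10 genes on chromosome V (8847393 to 8898539) overlapped, at 10.0 and 7.12 CPM in the mutant and 7.54 and 9.04 CPM in wild type. Because copies within a run are near-identical, their directions are not independent of each other.

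**Figure D4:**
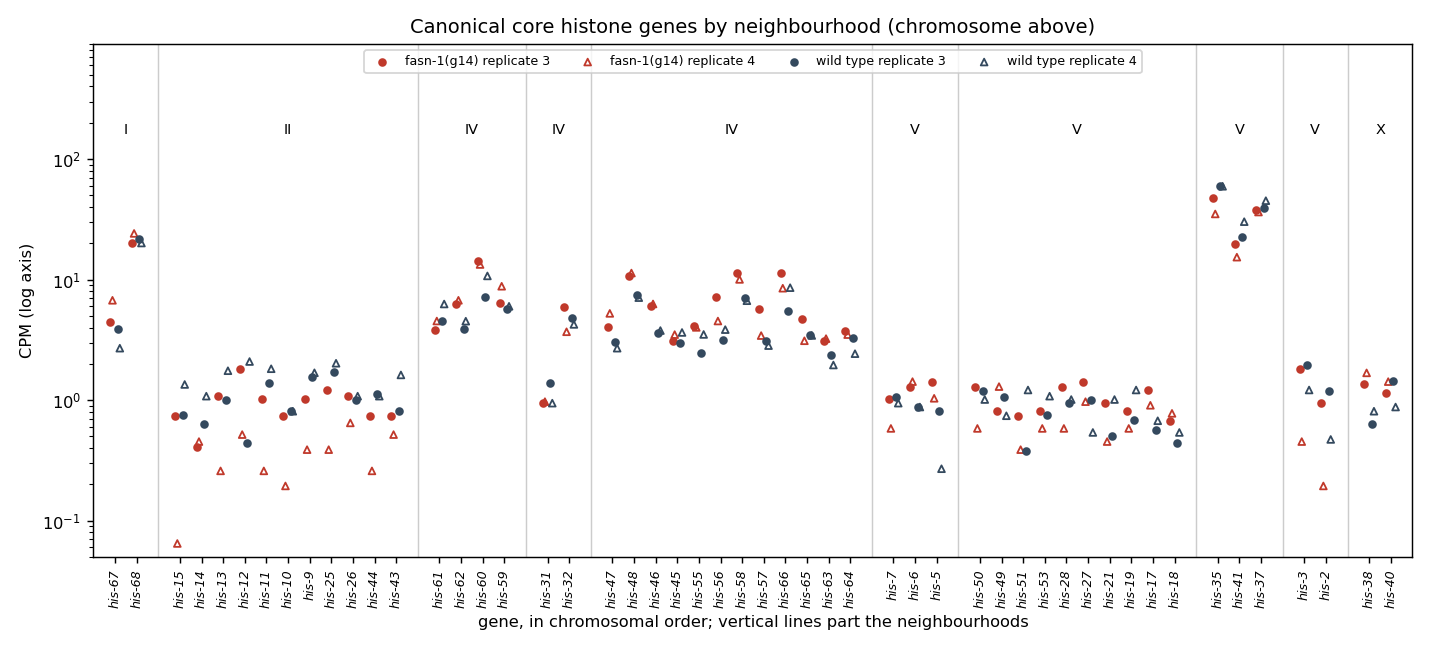
CPM on a log axis for the 51 canonical core histone genes in chromosomal order, fasn-1(g14) in red and wild type in blue, circles replicate 3 and triangles replicate 4. Both mutant values lie above both wild-type values for 9 of the 12 genes in the longer run on chromosome IV and below them for 8 of the 11 genes in the run on chromosome II.

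Transcripts that mark the germline, where most dividing cells of the adult lie, were measured beside these sums. The 16 germline markers summed to 4958 and 5699 CPM in fasn-1(g14) and 4944 and 4613 CPM in wild type, and the 19 oocyte markers to 15255 and 19194 CPM in fasn-1(g14) and 14879 and 14057 CPM in wild type. The median log2 changes were 0.16 and 0.25, and no marker of either list was at 0 in all libraries. By limma 0 of the 16 germline and 0 of the 19 oocyte markers passed in either direction. As given, the mutant sums were above wild type, only slightly so in replicate 3 and more so in replicate 4. The histone copies without introns were higher in replicate 3. Rescaling to the same CPM total multiplied the libraries by 1.01 and 0.972 in fasn-1(g14) and by 1.06 and 1.06 in wild type. On that scale mutant replicate 3 fell below wild type replicate 3 for both marker sums, and the groups overlapped. Mutant replicate 4 stayed above both wild-type libraries. The slight excess of these marker sums in mutant replicate 3 therefore depended on the scaling. The 16 early embryo markers with a row summed to 262 and 244 CPM in the mutant and 247 and 226 CPM in wild type. Their part in the histone levels was not tested.

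Genes that make, carry and load histones moved little. Of 20 genes for histone supply and chaperones, 0 passed by limma, with 3 higher and 0 lower at an unadjusted p below 0.05, and 0 passed in edgeR or DESeq2. The stem-loop binding protein gene cdl-1, needed to process replication-type histone messages, had 391 and 381 CPM in fasn-1(g14), against 341 and 332 CPM in wild type. Its mutant libraries were higher, but the log2 change of 0.20 (SE 0.07) did not pass (limma, adjusted p = 0.0972). The acetyltransferase gene hat-1, the H3.3 chaperone gene hira-1 and the chaperone gene asfl-1 had log2 changes of 0.27 (SE 0.08), 0.24 (SE 0.08) and 0.21 (SE 0.10; limma, adjusted p = 0.0630, 0.0865 and 0.189). The list median was 0.09 and was -0.01 with each library rescaled to the same CPM total, when the median of all rows was 0.00 and -0.09.

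Of 31 DNA replication and S phase genes with a row, 3 rose and 0 fell, or 9.68%, beside 4.41% and 10.7% of all rows. The cyclin-dependent kinase gene cdk-2 had 38.7 and 45.8 CPM in fasn-1(g14) and 28.2 and 26.8 CPM in wild type (log2 change 0.60, SE 0.13; limma, adjusted p = 0.0267). The replication licensing gene cdt-1 and the thymidylate synthase gene tyms-1 rose by 0.39 (SE 0.09) and 0.38 (SE 0.09; limma, adjusted p = 0.0373 and 0.0358). The polymerase subunit gene pole-2 had a log2 change of 0.28 (SE 0.09; limma, adjusted p = 0.0695). The count changed with single libraries left out, as did that over all rows. With each library left out in turn, the list median ran from 0.067 to 0.16, beside -0.0066 to 0.0025 over all rows.

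Of 45 genes for histone modifying enzymes and chromatin readers, 1 rose and 1 fell, or 4.44%. The Polycomb group gene mes-3 had 111 and 121 CPM in fasn-1(g14), against 93.6 and 93.8 CPM in wild type (log2 change 0.31, SE 0.08; limma, adjusted p = 0.0478). The SET domain gene set-30 fell to 22.1 and 13.02 CPM in fasn-1(g14), against 30.03 and 32.7 CPM in wild type (log2 change -0.85, SE 0.23; limma, adjusted p = 0.0480). Both calls were lost without either wild-type library, with a pseudocount of 0.5 CPM, with a mean of at least 5 CPM and in edgeR. That of mes-3 was also lost with rescaled CPM, with quantile normalization and in DESeq2, where 1 gene of the list was still called lower. The gene set-30 had log2 changes of -1.21 and -0.49 without mutant replicates 3 and 4 in turn. The histone methyltransferase complex gene ash-2 and the acetyltransferase gene pcaf-1 had log2 changes of 0.29 (SE 0.08) and 0.30 (SE 0.09), short of the threshold (limma, adjusted p = 0.0526 and 0.0545). Of 10 heterochromatin and nuclear envelope genes, 0 passed in limma, edgeR or DESeq2, and 0 had an unadjusted p below 0.05. Those with the smallest p-values there were lin-65, cec-4, lin-13 and baf-1, with log2 changes of 0.17, 0.14, 0.11 and 0.11. Of the centromeric H3 genes and their loading factor, cpar-1 had 61.6 and 84.5 CPM in fasn-1(g14) and 57.5 and 55.7 CPM in wild type (log2 change 0.35, SE 0.15; limma, adjusted p = 0.147), and of that list of 6, 3 rose, the spch genes already described.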

How the data were processed

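mRNA sequencing of 4 libraries was used, 2 of fasn-1(g14) and 2 of wild type, grouped by sample title. The authors deposited a normalized signal per gene, named CPM, with 1 column a library. The tools named, with no role, are edgeR 3.28.1, HTSeq 0.12.4 and Bowtie2 2.3.3.1, per the submitters' processing notes. Not given in the sources used here are the build, the annotation and how reads of near-identical copies were handled. A further 8 columns of other libraries were not used. Per the labels' protocols, RNA was extracted with TRIzol, and 1 µg went into each library (NEBNext Ultra II RNA; 8 cycles of amplification). That kit does not mark the strand.

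All values (100% per library, within 0.001 read) were whole multiples of the smallest, so reads were recovered. Chi-square over degrees of freedom was 13.3 between mutant and 4.58 between wild-type replicates, so no library repeated another. Of 13758 rows, 13747 matched 1 gene of Ensembl release 115 (WBcel235), 8 matched none and 3 were ambiguous. Symbols of single copies came from RefSeq by sequence name, since the annotation gives 48 symbols to the 65 members. Histone classes were assigned from general knowledge, and the annotated codon number matched the class for 54 of 54 genes checked. No linker gene was among those checked.

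The 12977 rows that reached 1 CPM or more in 2 or more libraries were fitted with limma 3.58.1 in R 4.3.3 on log2(CPM + 1), group only, mean-variance trend, two-sided, Benjamini-Hochberg over all rows, threshold 0.05. Changes on this scale understate those of low genes. Errors are SD over 2 libraries or SE of the fit, and p-values measure the spread between these samples. An exact permutation test of 2 against 2 cannot go below 0.333 and was not used. Read counts without molecular identifiers cover counting error only; 3 reads equal 0.188 to 0.203 CPM. Alternatives were edgeR 4.0.16 and DESeq2 1.42.0 on recovered reads, other pseudocounts, filters and scalings, a replicate block and leaving out each library. The fit was tested on simulated data. Members and lists were chosen with earlier results of these data known. Named were all linker and variant genes, the 3 most abundant copies of each canonical class, members past the threshold, and per list up to 4 genes of lowest p with a mean of 1 CPM or more; others, such as the genes called under quantile normalization, were named after their values were seen.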

Additional observations from a re-analysis of the deposited data

How the results depend on the processing

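The counts depended mainly on single libraries. With each library left out in turn (a lone library is assumed to vary like the pair of the other group), rises and falls ran from 151 to 2346 and 179 to 3268 over all genes, 0 to 6 and 0 to 9 for core, 0 to 5 and 0 to 8 for canonical, 0 to 1 and 0 to 1 for variant, and 0 to 3 and 0 to 4 for linker histones. For the lists, rises ran from 0 to 7 (histone chaperones and supply), 0 to 11 (modifying enzymes, with falls from 0 to 3), 0 to 4 (centromere and sperm chromatin) and 0 to 12 (DNA replication). The log2 change of fasn-1 ran from -0.45 to -0.14, and log2 ratios of summed levels from -0.26 to 0.029 (linker), -0.38 to -0.12 (H2A) and 0.081 to 0.18 (H3). Ranges of genes that changed sign were -0.21 to 0.45 (hil-1), -0.22 to 0.38 (hil-2), -0.31 to 0.31 (hil-3), -0.026 to 0.16 (hil-4), -0.016 to 0.081 (hil-5), -0.23 to 0.32 (his-32), -0.038 to 0.20 (his-68) and -0.047 to 0.20 (his-72).

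For the linker histones 0 fell with a pseudocount of 0.5 CPM, a mean of at least 5 CPM, rescaled CPM, quantile normalization, edgeR or DESeq2, and 1 (hil-6) was higher with quantile normalization. For core histones, and likewise for canonical ones, 1 fell with a pseudocount of 5 CPM, with no filter, with DESeq2 and with quantile normalization (his-35 in each case), and 7 rose with quantile normalization. Over all genes, 288 rose and 509 fell with a mean of at least 5 CPM (fewer rows), 359 rose with rescaled CPM and 913 fell in edgeR. For modifying enzymes 0 rose with a pseudocount of 0.5 CPM, a mean of at least 5 CPM, rescaled CPM, quantile normalization, edgeR, DESeq2 or the replicate block, 2 rose with a pseudocount of 5 CPM, and 0 fell with a pseudocount of 0.5 CPM, a mean of at least 5 CPM or edgeR. With a mean of at least 5 CPM 0 of the centromere and sperm chromatin list rose and 1 DNA replication gene rose; 1 DNA replication gene rose with rescaled CPM and 1 with quantile normalization. Summed levels as log2 ratios moved on rescaling to 0.036 (H3), 0.019 (H3.3) and 0.052 (H4), and without the most abundant row to 0.063 (H2A), 0.44 (H2B), 0.063 (H3) and 0.53 (H4), from -0.24, 0.041, 0.13 and 0.15. Changes of sign near 0 were hil-2 at -0.015 (rescaled) and -0.0072 (quantile), hil-3 at -0.10 (rescaled), -0.086 (quantile) and -7.9e-05 (pseudocount of 0.5 CPM), hil-4 at -0.033 (rescaled), hil-5 at -0.065 (rescaled) and -0.049 (quantile), his-32 at -0.034, his-68 at -0.011 and his-72 at -0.022 (each rescaled), and his-61 at 0.058 (quantile). Except where a filter left fewer rows or a library was left out, the cause was not tested.

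Samples with the same replicate number share only that number, and their deviations correlated at -0.21 across genes. With the replicate block 2 core and 2 canonical genes fell (his-35 and his-41), 2 linker genes fell (hil-7 and his-24) and 2 modifying enzyme genes fell. With the numbers crossed, added after seeing the data, 1197 and 2310 of all genes rose and fell, as did 1 and 3 core, 0 and 2 canonical, 1 and 1 variant, 0 and 2 linker, and 9 and 3 modifying enzyme genes, and 3 chaperone and 6 DNA replication genes rose, with fasn-1 past the threshold at -0.29. The share of a transcript unique to each copy was not run, because no sequence was used here. With 29 canonical copies under 2 CPM in both groups and 1 read worth 0.0628 to 0.0676 CPM, depth limits what single copies can show.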
